A study of Rattus norvegicus with 12 samples.

Results

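Heat shock proteins and chaperones, the proteins that fold, refold and sort other proteins, were followed in rat dorsal root ganglia after nerve injury. The set held every measured gene whose symbol began with Hsp and a, b, d, e, h or 90, with Dnaj and a, b or c, or with Cct and a number, together with Hsf1, Hsf2, Hspbp1, Calr, Canx, Pdia3, Pdia4 and Pdia6. Of 10411 genes on the array, 67 were members. Where a gene had several probe sets, the one brightest on average across the 12 arrays stood for it. The rule used names and brightness, not the differences between groups.

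Dorsal root ganglia hold the cell bodies of the sensory neurons that serve trunk and limbs, with their satellite glia, Schwann cells, vessels and resident immune cells. The 12 Affymetrix arrays measured total RNA of L4/L5 ganglia from adult male Sprague Dawley rats of 2 genetic sub-lines, High Pain (HP) and Low Pain (LP). In each line 3 arrays came from rats whose L4 and L5 spinal nerves had been ligated (SNL, a model of neuropathic pain), 3 days after surgery, and 3 from rats with a sham operation that left the nerve intact. The sample titles give a day for the SNL arrays alone, not for the sham arrays. The groups are named by line and surgery, as HP sham or LP SNL. No group carries a transgene or drug treatment in the labels. Since nothing in the labels ties each replicate to its own animal, a p-value here reflects the spread among the arrays and may cover technical variation alone.

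Chaperones of the HSP70 family bind unfolded stretches of protein in a cycle driven by ATP. J-domain proteins (the DNAJ families) bring them clients, nucleotide exchange factors such as HSP110 reset them, and HSP90 takes over some clients for their last folding steps. Small heat shock proteins hold unfolding proteins without ATP, and chaperonins fold them inside a closed chamber, the TRiC complex in the cytosol and HSP60 with HSP10 in mitochondria. In the endoplasmic reticulum, lectin chaperones and disulfide isomerases fold secreted and membrane proteins. HSF1 turns on the cytosolic genes when unfolded proteins build up, and ATF6 and XBP1 turn on those of the endoplasmic reticulum. In injured sensory neurons, the small heat shock protein HSP27, encoded by Hspb1, is known for its part in survival and axon regrowth.

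The DNA that these factors read is shown first, because members with and without the same element are described below. Promoter windows of 300 bases (250 before to 50 after the transcription start) from RefSeq, assembly GRCr8, were matched by symbol for 54 of the 67 members. The 13 without a window were Hspb2, Hsf1, Dnajc24, Pdia3, Dnajc12, Dnajb4, Dnajc2, Pdia6, Dnaja2, Dnajc22, Dnajc15, Dnajc8 and Hspa12a. A heat shock element of 3 units, searched as GAA, TTC and GAA with 2 free bases between neighbours and as its reverse complement, was in the windows of 5 members (9.26%) and in 0.736% of all 27457 windows. The 5 were Hsph1, Hspd1, Hspe1, Dnaja1 and Cct4, the last 2 with the match after the start site. Pairs of these units, which every 3-unit element also holds, were more widespread. GAANNTTC was in 18.5% of member windows and 8.34% of all windows, and TTCNNGAA in 20.4% and 8.49%. The endoplasmic reticulum stress element, CCAAT and CCACG with 9 free bases between them on either strand, was in 5 members (9.26%) against 0.0765% of all windows. These were Calr, Canx, Hspa5, Hsp90b1 and Dnajc3. The AP-1 site TGANTCA was in 2 members (3.7%, against 7.33% of all windows), and the ATF/CREB site TGACGTCA in 3 (5.56%, against 1.91%). A match is a description of the letters and does not show that a factor binds there.

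The upstream bases of 3 members that the results turn on are given 5′ to 3′ on the strand of the gene, ending at the last base before the start, with the elements named here in capitals. Hspb1 (minus strand, chr12:26432302-26432551) had no exact match to the 3-unit element. It held the head-to-head pair at 129 to 122 and again at 109 to 102 bases before the start. From the first of these pairs on, its bases matched all but the last letter of the 3-unit element, which the exact search did not count. Hsph1 (plus strand, chr12:10427118-10427367) held a 3-unit element at 36 to 24 bases before the start, and also a tail-to-tail pair at 105 to 98, left in lower case. Calr (plus strand, chr19:40213117-40213366) held the endoplasmic reticulum stress element, in reverse, at 232 to 214 bases before the start.
Hspb1: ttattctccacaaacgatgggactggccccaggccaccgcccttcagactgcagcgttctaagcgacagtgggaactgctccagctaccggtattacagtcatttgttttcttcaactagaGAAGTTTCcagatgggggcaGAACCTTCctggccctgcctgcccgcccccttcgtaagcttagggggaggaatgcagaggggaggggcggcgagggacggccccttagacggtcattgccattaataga
Hsph1: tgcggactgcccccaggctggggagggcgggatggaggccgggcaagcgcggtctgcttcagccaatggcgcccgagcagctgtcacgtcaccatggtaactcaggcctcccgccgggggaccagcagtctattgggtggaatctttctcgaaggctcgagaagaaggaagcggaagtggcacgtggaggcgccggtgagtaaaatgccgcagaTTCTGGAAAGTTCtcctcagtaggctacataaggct
Calr: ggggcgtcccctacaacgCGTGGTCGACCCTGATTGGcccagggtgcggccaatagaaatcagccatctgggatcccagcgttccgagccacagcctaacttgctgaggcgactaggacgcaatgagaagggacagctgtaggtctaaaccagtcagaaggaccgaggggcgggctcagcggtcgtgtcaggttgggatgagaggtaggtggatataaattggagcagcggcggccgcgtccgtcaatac

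Hspd1 and Hspe1, which encode the mitochondrial chaperonin and its lid, lie on opposite strands. The starts used for their windows are 290 bases apart, and the windows share 211 bases. The annotated span of Hspd1 (chr9:64073610-64084332) runs past the start used for its window, so the stretch shown here lies inside that span. This single stretch of 30 bases, on the strand of Hspe1 (chr9:64084256-64084285), gave both genes their 3-unit matches.
Hspe1 and Hspd1: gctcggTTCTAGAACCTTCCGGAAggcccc
The stress elements of the other endoplasmic reticulum members are given as their 19 matched bases, read on the strand of the gene. Hspa5 is on the plus strand (chr3:38452973-38452991), Hsp90b1 on the minus strand with 2 matches (chr7:23012451-23012469 and chr7:23012347-23012365), Canx on the minus strand (chr10:35158069-35158087) and Dnajc3 on the plus strand (chr15:102432534-102432552).
Hspa5: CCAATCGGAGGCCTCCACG
Hsp90b1, first match: CCAATCGAAAGGAGCCACG
Hsp90b1, second match: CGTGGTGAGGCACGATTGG
Canx: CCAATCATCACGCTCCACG
Dnajc3: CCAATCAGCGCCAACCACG

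After ligation, some chaperones were called higher and others lower in each line, and most were not called. Among the called members Hspb1 had the highest rise, close to 2-fold in HP and in LP. Hspa2, an HSP70, rose with it, and so did the disulfide isomerase Pdia6, while the HSP110 gene Hsph1, the HSP70 relative Hspa12a and the J-protein genes Dnajb4 and Dnajc6 fell in both lines. In HP, limma called 3 members higher and 4 lower at an adjusted p below 0.05, which is 7 of 67 or 10.4%, where 13.6% of all 10411 genes were called (7.02% higher and 6.61% lower). In LP it called 5 higher and 9 lower, 14 of 67 or 20.9%, where the share of all genes was 14.4% (7.66% higher and 6.79% lower). The HP share was below that of all genes and the LP share above it, and neither difference was tested. Members were brighter than most genes, with 33 of 67 above the 75th brightness percentile, so members and all genes are not alike in brightness. All 7 HP calls and all 14 LP calls were among the 52 members outside the dimmest 25% of genes. Without HP SNL 1, HP SNL 3, HP sham 1 or HP sham 3 the HP rises went down to 1, and without HP SNL 1, HP sham 2 or HP sham 3 the HP falls went down to 2. Without LP SNL 1, LP SNL 3 or LP sham 1 there were 3 LP rises, and without LP SNL 3 or LP sham 2 there were 5 LP falls. With only the 6 arrays of a line in the fit, Hspa12a, Hsph1 and Pdia6 lost their HP calls (adjusted p of 0.0629 to 0.114). In LP, 10 of the 14 calls were then lost (0.0521 to 0.141), and those of Hspb1, Pdia6, Dnajb2 and Dnajc6 were kept. The median log2 difference of the members was -0.05 in HP and -0.03 in LP, where that of all genes was -0.0008 and 0.02.

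The calls overlapped between the lines. All 7 members called in HP were also called in LP in the same direction, 3 higher and 4 lower, and they were 7 of the 14 LP calls. Over all genes, 998 of the 1419 HP calls (70.3%) and of the 1504 LP calls (66.4%) were shared in direction. Another 7 members were called in LP alone and 53 in neither line. Without an overlap between the 3 SNL and the 3 sham signals were 8 members higher and 16 lower in HP, where 17.2% and 17.1% of all genes were. In LP there were 7 and 13, where 16.5% and 14.7% of all genes were. Across all 67 members the HP and LP differences had a Pearson r of 0.30, below the 0.60 over all genes. Over the 52 members outside the dimmest 25% of genes r was 0.66. For all genes outside the dimmest 25% no r was computed, so that 0.66 has no like value beside it. The lines share no arrays in these differences, but genes are not independent replicates. The calls are less separate, since all arrays were fitted together and a gene had the same variance in both lines. A gene with a small spread was thus favoured in both, and the overlap of calls is not one between independent tests. With only the arrays of a line in the fit, Hspb1 and Dnajc6 were the only members called in both lines. Hspa2 and Dnajb4 then kept their HP calls alone, and Pdia6 its LP call alone.

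**Figure D1:**
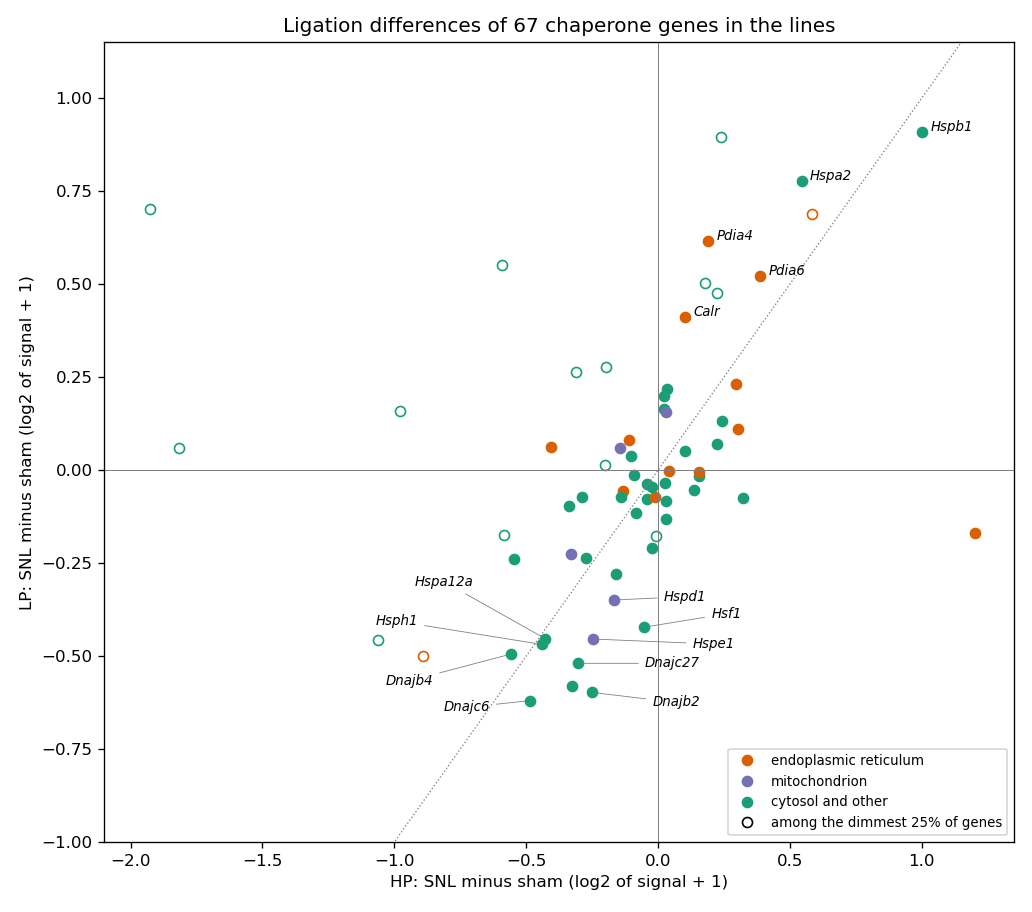
Difference between SNL and sham in HP (x axis) and in LP (y axis) for the 67 chaperone genes, in units of log2 of the signal plus 1, coloured by compartment, with open circles for the 15 members among the dimmest 25% of genes and a dotted line at equality. Names mark the 14 members called in either line: Hspb1 lies at 1.00 and 0.91 in the upper right corner, and the points farthest from the line are open circles and Dnajc1, at 1.20 and -0.17.

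How far a member can be read depends on its brightness. 15 of the members lay in the dimmest 25% of genes, with signals between 8.5 and 202.9, and their median replicate SD was 0.68 log2 units, against 0.12 for the 33 members above the 75th brightness percentile. These dim members were Dnajb3, Dnajb5, Dnajb12, Dnajb13, Dnajc2, Dnajc3, Dnajc4, Dnajc17, Dnajc21, Dnajc22, Hspa12b, Hspa1l, Hspb2, Hspb3 and Hspbap1. None of the 15 was called in either line in the main fit. In HP, 3 were each called lower in an alternative. These were Dnajc4 with the actin ratio described below as a covariate (-3.46, adjusted p = 0.0129) and Hspa1l with the replicate number as a block (-1.82, 0.0223). The other was Dnajb12 without HP SNL 3 (-1.62, 0.0342). All log2 differences here are of the signal plus 1 and understate the change of dim genes.

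**Figure D2:**
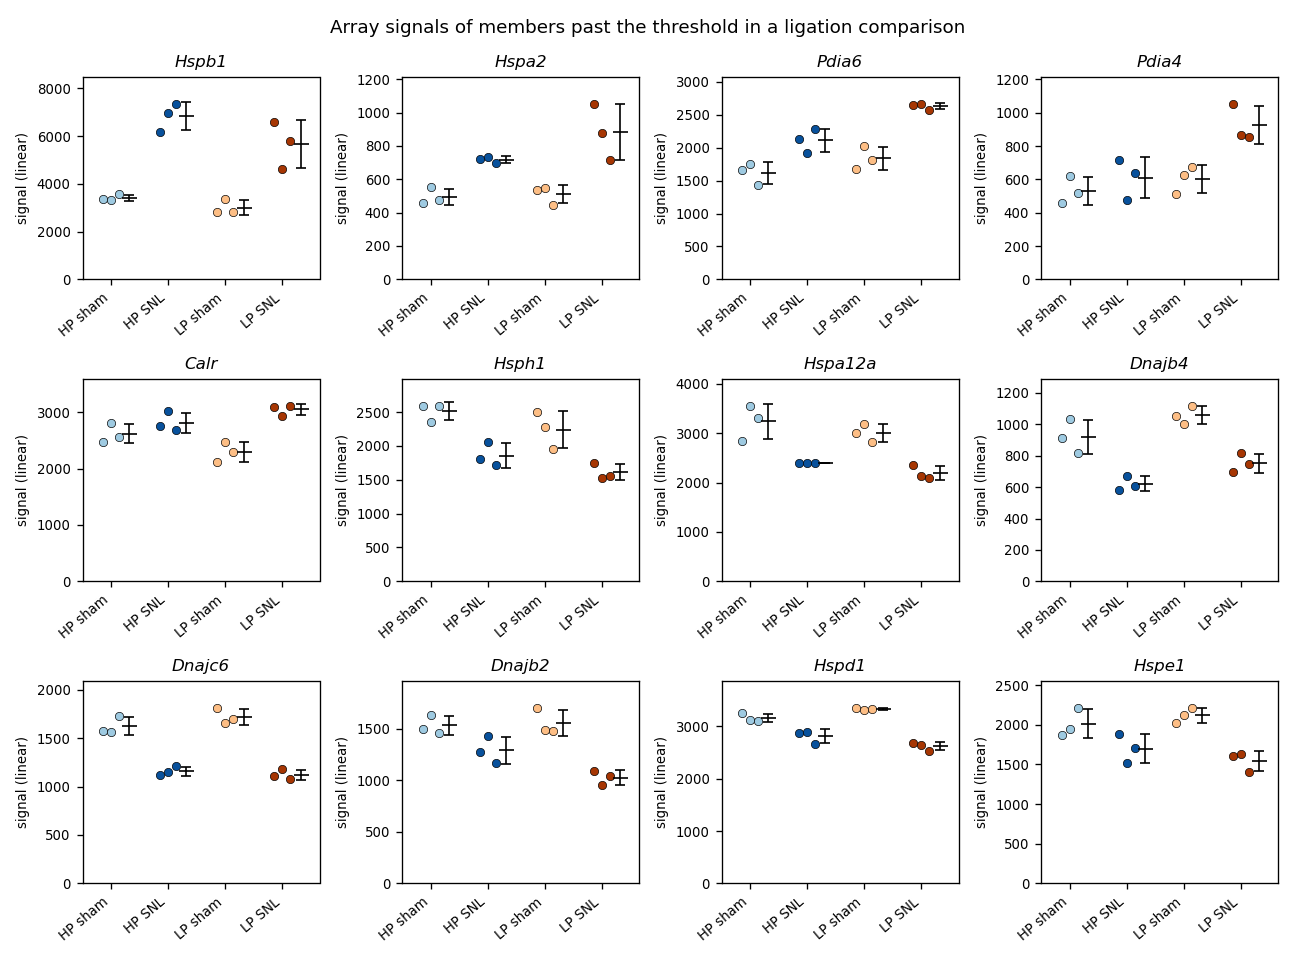
Signal on the deposited linear scale (y axis from 0) of 12 members called in HP or LP, by group (x axis), with a dot for each array and a bar at the mean ± SD of 3 arrays. Hspb1 runs from 2805.4 to 3561.9 in the 6 sham arrays and from 4618.8 to 7360.4 in the 6 SNL arrays, and Dnajc6 from 1563.8 to 1815.7 in sham and from 1075.9 to 1209.0 in SNL.

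Among small heat shock proteins, 1 of 6 measured members rose in each line and none fell. Over all genes, 7.02% were called higher in HP and 7.66% in LP, so 1 gene is no result about the family. HP sham arrays gave Hspb1 signals of 3358.9, 3313.2 and 3561.9, and HP SNL arrays 6180.6, 6979.4 and 7360.4. The LP sham arrays read 2821.6, 3368.7 and 2805.4, and the LP SNL arrays 6597.6, 4618.8 and 5794.2. Every SNL array lay above every sham array of both lines. The difference was 1.00 ± 0.14 log2 units in HP (SE, 2.00-fold, adjusted p = 0.00144) and 0.91 ± 0.14 in LP (1.88-fold, adjusted p = 0.00202). It kept its call in all 23 alternatives in each line. Hspb8, a partner of the cochaperone BAG3, had signals of 1716.5 to 3035.8, and its differences were 0.02 ± 0.17 and 0.20 ± 0.17, neither past the threshold. Its dimmer probe set gave 0.31 ± 0.10 in HP and -0.02 ± 0.10 in LP (adjusted p = 0.0818 and 0.952 over all probe sets). Hspb6 and Hspb7, typical of muscle, gave differences of -0.02 ± 0.13 and 0.32 ± 0.20 in HP and -0.21 ± 0.13 and -0.07 ± 0.20 in LP, also short of it. Hspb2 and Hspb3 were dim, with no signal above 70.0.

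In the HSP70 and HSP110 family, 1 of 10 members rose and 2 fell in each line, and they were the same 3 genes. Of all genes, 7.02% were called higher and 6.61% lower in HP, and 7.66% and 6.79% in LP. The count of rises is about the share of all genes. Hspa2, an HSP70 best known from testis, had signals of 456.1, 550.8 and 473.1 in HP sham, against 723.7, 735.4 and 694.8 in HP SNL. In LP they were 534.4, 549.9 and 448.4 after sham and 1053.9, 877.0 and 717.9 after SNL. No SNL array overlapped with a sham array. The difference was 0.54 ± 0.15 in HP (1.46-fold, adjusted p = 0.0341) and 0.78 ± 0.15 in LP (1.71-fold, adjusted p = 0.00596). In HP the call was lost without any one of HP SNL 1, 2 and 3 and HP sham 1 and 3 (adjusted p between 0.0750 and 0.114, differences of 0.49 to 0.57), with median centring (0.0598) and with the actin ratio described below as a covariate (0.0928). In LP it was lost with only the LP arrays in the fit (0.0521).

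Hsph1, the HSP110 that resets HSP70, moved the other way. Its signals were 2593.3, 2354.9 and 2595.6 in HP sham, against 1801.6, 2057.9 and 1713.8 in HP SNL. In LP they were 2498.5, 2275.9 and 1949.9 against 1753.6, 1530.2 and 1558.5. The groups did not overlap within either line. Hsph1 fell by 0.44 ± 0.12 on the log2 scale in HP (adjusted p = 0.0344) and fell by 0.47 ± 0.12 in LP (adjusted p = 0.0238). The HP call was lost without any one of HP SNL 1 and 3 and HP sham 1, 2 and 3 (adjusted p of 0.0534 to 0.113), and with the actin covariate the HP difference was -0.26 (0.206). It was also lost with the replicate number as a block (0.0518). The LP call was lost without any one of LP SNL 2 and 3 and LP sham 1 and 2 (0.0703 to 0.0798).

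Hspa12a, a distant relative of HSP70, fell as well. HP sham gave 2852.2, 3561.8 and 3307.0 and HP SNL gave 2400.3, 2394.6 and 2399.1, while LP sham gave 3005.5, 3192.7 and 2829.0 and LP SNL gave 2363.3, 2129.2 and 2102.4. All 6 SNL signals lay below all 6 sham signals. The difference was -0.43 ± 0.10 in HP (adjusted p = 0.0207) and -0.45 ± 0.10 in LP (adjusted p = 0.0142). In HP the call was lost without any one of HP SNL 1, 2 and 3 and HP sham 2 and 3 (0.0537 to 0.0716) and with the actin covariate (0.0682), and in LP without LP SNL 3 or LP sham 2 (0.0533 to 0.0561).

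The better known HSP70 genes did not pass. Hspa1a, the HSP70 most strongly induced by heat, had signals of 471.0 to 655.3 over the 12 arrays, with differences of -0.09 ± 0.12 in HP (95% interval -0.36 to 0.17) and -0.01 ± 0.12 in LP (-0.28 to 0.25). Hspa5, the main HSP70 of the endoplasmic reticulum, had 0.15 ± 0.08 and -0.005 ± 0.082. Its HP SNL signals of 1847.7 to 1990.7 lay above the HP sham signals of 1623.2 to 1794.7, without passing after adjustment (adjusted p = 0.268). Hspa9, the mitochondrial HSP70, had 0.03 ± 0.15 and 0.16 ± 0.15, and Hspa4, an HSP110 relative, had 0.24 ± 0.23 and 0.13 ± 0.23. Probe sets for Hspa1b, Hspa8 and Hsp90aa1 also matched another gene name, so these genes were not used here. Neither of the 2 HSP90 members passed. Hsp90ab1, the constitutive cytosolic HSP90, had signals from 5566.6 to 7824.2 and differences of -0.04 ± 0.14 in both lines. Hsp90b1, the HSP90 of the endoplasmic reticulum, had 0.30 ± 0.12 in HP (adjusted p = 0.152) and 0.23 ± 0.12 in LP (adjusted p = 0.261).

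J-domain proteins made up 31 of the members, with 2 falls in HP and 4 in LP and no rise, where 6.61% and 6.79% of all genes were called lower. The HP count is about the share of all genes. Of 4 type A members none was called, of 9 type B members 1 fell in HP and 2 in LP, and of 18 type C members 1 fell in HP and 2 in LP. Dnajb4, a cytosolic partner of HSP70, had signals of 914.8, 1031.4 and 814.7 in HP sham, against 584.4, 673.3 and 609.7 in HP SNL. LP gave 1055.5, 1004.7 and 1119.0 after sham and 695.8, 816.5 and 745.7 after SNL. The groups did not overlap within a line, although LP SNL 2 reached the lowest HP sham array. Dnajb4 fell by 0.56 ± 0.11 in HP (adjusted p = 0.00949), a call kept in all 23 alternatives, and fell by 0.49 ± 0.11 in LP (adjusted p = 0.0149), lost without LP SNL 1 (0.0593) and with only the LP arrays (0.0534).

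Dnajc6 encodes auxilin, the neuronal J-protein that strips clathrin from synaptic vesicles. Its HP signals were 1578.7, 1563.8 and 1727.6 after sham and 1117.4, 1148.3 and 1209.0 after SNL, and its LP signals 1815.7, 1655.4 and 1695.2 against 1104.0, 1181.2 and 1075.9. All 6 SNL arrays lay below all 6 sham arrays. The difference was -0.49 ± 0.08 in HP (1.40-fold lower, adjusted p = 0.00479) and -0.62 ± 0.08 in LP (1.54-fold lower, adjusted p = 0.00112). A dimmer probe set of Dnajc6 gave -0.18 ± 0.21 in HP and -0.80 ± 0.21 in LP (adjusted p = 0.655 and 0.0329 over all probe sets), and with the mean of both the HP call was lost (-0.34, adjusted p = 0.100).

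Dnajb2, a J-protein rich in neurons that passes ubiquitinated clients to the proteasome, was called in LP. LP sham gave 1707.3, 1488.5 and 1475.0 and LP SNL 1091.9, 953.0 and 1038.2, with no overlap, a difference of -0.60 ± 0.11 (adjusted p = 0.00477) kept in all 23 alternatives. In HP the signals were 1501.6, 1637.5 and 1460.4 against 1280.2, 1429.0 and 1170.4, and the difference of -0.25 ± 0.11 did not pass (adjusted p = 0.172). Dnajc27, a small GTPase with a J domain, had a difference of -0.52 ± 0.14 in LP (adjusted p = 0.0305), from 833.4, 714.3 and 540.6 to 492.9, 473.3 and 467.6. That call was lost without any one of LP SNL 1, 2 and 3 and LP sham 1 and 2 (0.0696 to 0.0912). Its HP difference was -0.30 ± 0.14 (adjusted p = 0.196).

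Other J-proteins stayed short of the threshold. Dnaja1 and Dnajb1, the main cytosolic J-proteins of the heat shock response, had -0.04 ± 0.12 and -0.10 ± 0.13 in HP and -0.08 ± 0.12 and 0.04 ± 0.13 in LP. Dnajc5, the cysteine string protein of synaptic vesicles, had 0.22 ± 0.13 and 0.07 ± 0.13, but it was called higher in HP with the actin ratio as a covariate (0.45, adjusted p = 0.0453). Dnaja4 did not pass with its brighter probe set (-0.16 ± 0.09 in HP and -0.28 ± 0.09 in LP, adjusted p = 0.283 and 0.0625), but its other probe set gave -0.51 ± 0.12 and -0.62 ± 0.12 (adjusted p = 0.0207 and 0.00710 over all probe sets). It was called lower in LP with the mean of its probe sets, array weights, median centring, trended and robust variance, without the dimmest genes and without LP sham 3, and in HP with the mean alone. Dnajc1, chosen here after its values were seen, had the highest difference of any member, 1.20 ± 0.58 in HP (adjusted p = 0.222). That value rests on HP sham 3 at 31.9, where the other HP sham arrays had 184.6 and 240.0, and its other probe set gave -0.32 ± 0.69. Dnajc8, a J-protein tied to splicing and also named after its values were seen, came closest to the threshold of the uncalled type C members (-0.29 ± 0.09 in HP, adjusted p = 0.0541, and -0.07 ± 0.09 in LP). It was called lower in HP with array weights, median centring, trended and robust variance and without the dimmest genes. The J-proteins of the endoplasmic reticulum Dnajb9 and Dnajb11 had -0.01 ± 0.11 and 0.30 ± 0.15 in HP and -0.07 ± 0.11 and 0.11 ± 0.15 in LP. Dnaja2, Dnajc7, Dnajc12, Dnajc14, Dnajc15, Dnajc24 and Hspa13 had differences between -0.54 ± 0.24 (Dnajc24 in HP) and 0.16 ± 0.15 (Dnajc12 in LP), none past the threshold. Of the 18 members with more than 1 probe set, all probe sets had the same sign for 10 in HP and 9 in LP.

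Chaperonins were called in LP alone, and there only those of the mitochondrion. The difference in counts from the cytosolic TRiC, 2 of 2 against 0 of 7 members, was not tested. Over all genes, 6.79% were called lower in LP. Hspd1 (HSP60) and Hspe1 (HSP10), whose shared heat shock element is printed above, were both called lower in LP. Hspd1 had 3358.8, 3309.9 and 3337.1 in LP sham and 2680.4, 2645.6 and 2530.2 in LP SNL, a difference of -0.35 ± 0.08 (adjusted p = 0.0117). Hspe1 had 2018.4, 2127.0 and 2210.7 against 1611.5, 1632.8 and 1402.1, a difference of -0.45 ± 0.11 (adjusted p = 0.0221). The LP groups did not overlap for either gene. The Hspe1 call was lost without LP SNL 3, LP sham 2 or LP sham 3 (0.0616 to 0.0857). It was also lost with the replicate number as a block and with only the LP arrays in the fit (0.0529 to 0.0649). The Hspd1 call was lost only when the LP arrays were fitted alone (0.0810). In HP the differences were -0.17 ± 0.08 for Hspd1 (3250.0, 3121.5 and 3102.6 against 2882.1, 2892.5 and 2661.3, adjusted p = 0.189) and -0.25 ± 0.11 for Hspe1 (adjusted p = 0.193). None of the 7 TRiC subunits (Cct2, Cct3, Cct4, Cct5, Cct6a, Cct7 and Cct8) was called in either line, and none had an unadjusted p below 0.05. Their differences ran from -0.34 to 0.16 in HP and from -0.58 to 0.22 in LP. The lowest values were those of Cct6a in HP (± 0.15) and of Cct8 in LP (± 0.27). Tcp1, the subunit that the name rule leaves out, had -0.02 ± 0.13 and -0.12 ± 0.13.

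Calls among the 5 lectin chaperones and disulfide isomerases of the endoplasmic reticulum were all rises, 1 in HP and 3 in LP. Of all genes, 7.02% were called higher in HP and 7.66% in LP. Pdia6 had 1665.0, 1758.0 and 1428.9 in HP sham, against 2136.8, 1921.0 and 2277.6 in HP SNL, and 1683.6, 2021.9 and 1806.6 in LP sham and 2646.5, 2671.5 and 2581.0 in LP SNL. The groups did not overlap within a line, and the LP SNL arrays were the brightest. The difference was 0.39 ± 0.11 in HP (1.31-fold, adjusted p = 0.0449) and 0.52 ± 0.11 in LP (1.44-fold, adjusted p = 0.0107). The LP call was kept in all 23 alternatives. The HP call was lost in 13, among them those without any one of HP SNL 1 and 3, HP sham 1, 2 and 3, LP SNL 1, 2 and 3 and LP sham 3 (0.0504 to 0.155) and that with the actin covariate (0.27, adjusted p = 0.234).

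Pdia4, another isomerase, had 511.3, 628.1 and 672.0 in LP sham and 1054.6, 868.0 and 851.2 in LP SNL, without overlap. Its LP difference was 0.62 ± 0.18 (1.53-fold, adjusted p = 0.0464), a call lost without any one of the 6 LP arrays or of HP SNL 3, HP sham 1 and HP sham 3 (0.0529 to 0.152), with the actin covariate (0.0693) and with median centring (0.0866). The replicate number as a block and a fit of only the LP arrays also lost it. Over these 4 settings the adjusted p lay between 0.0678 and 0.0925. In HP the difference was 0.19 ± 0.18 (adjusted p = 0.561), from 456.6, 618.6 and 515.6 to 713.9, 475.9 and 638.5, which overlap. Calr encodes calreticulin, a calcium-binding lectin chaperone, and its stress element is printed above. It had 2120.2, 2470.0 and 2295.0 in LP sham and 3097.7, 2937.1 and 3118.0 in LP SNL, without overlap, and rose by 0.41 ± 0.09 (adjusted p = 0.0153). The call was lost without LP SNL 1, LP SNL 3 or LP sham 1 (0.0524 to 0.0557) and with only the LP arrays (0.0738). In HP the Calr difference was 0.10 ± 0.09 (adjusted p = 0.547). Canx (calnexin, the membrane-bound relative of calreticulin) and Pdia3, which works with both, had -0.13 ± 0.11 and 0.04 ± 0.12 in HP and -0.06 ± 0.11 and -0.003 ± 0.120 in LP. Of the 5 members with the stress element in their window, Calr was called in LP and none in HP, and Hsp90b1 was called only in the contrast averaged over the lines that is given below.

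By compartment, the 14 endoplasmic reticulum members had 1 rise in HP and 3 in LP and no fall, where 7.02% and 7.66% of all genes were called higher, so the HP count is about the share of all genes. The 5 mitochondrial members had no call in HP and 2 falls in LP. The other 48, mostly cytosolic, had 2 rises and 4 falls in HP and 2 rises and 7 falls in LP, where 6.61% and 6.79% of all genes were called lower. The differences between compartments were not tested. Their median differences were 0.13, -0.17 and -0.09 in HP and 0.07, -0.22 and -0.05 in LP, in that order.

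**Figure D3:**
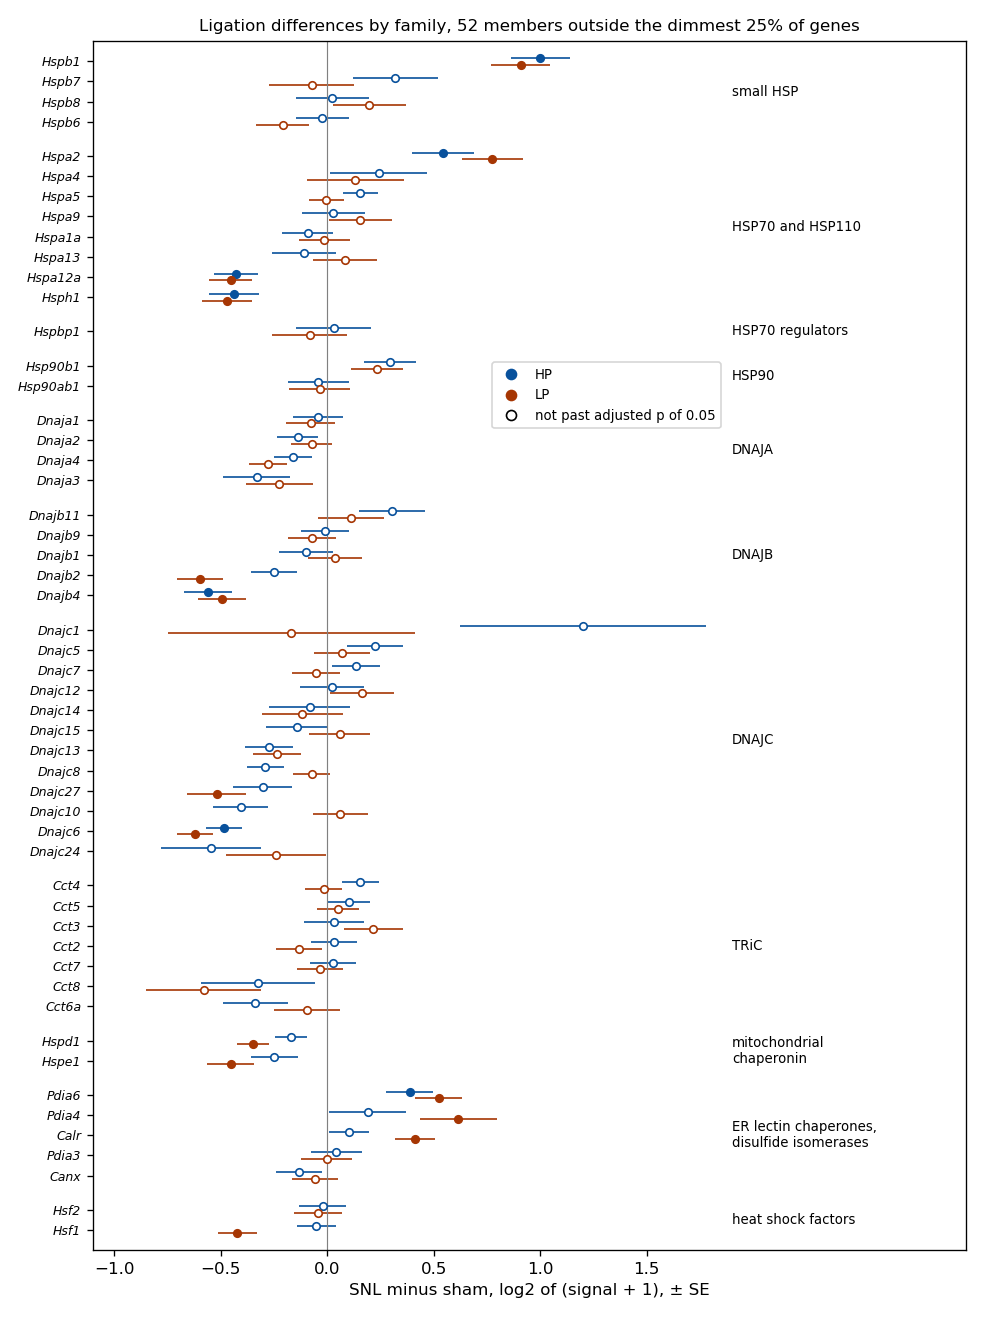
Difference between SNL and sham (x axis, log2 of the signal plus 1, ± SE) for the 52 members outside the dimmest 25% of genes, grouped by family, with HP in blue, LP in orange and filled circles at an adjusted p below 0.05. Filled circles to the right of 0 are in the small HSP, HSP70 and endoplasmic reticulum groups, and all of those among DNAJ proteins, mitochondrial chaperonins and heat shock factors are to the left.

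Of the heat shock factors, Hsf1 fell in LP, and neither was called in HP. Hsf1 had 498.6, 564.9 and 499.0 in HP sham, against 515.5, 494.4 and 495.6 in HP SNL, a difference of -0.05 ± 0.09 (adjusted p = 0.788). In LP it had 563.9, 563.8 and 558.4 after sham and 380.5, 455.9 and 424.7 after SNL, which do not overlap. There Hsf1 fell by 0.42 ± 0.09 on the log2 scale (1.34-fold, adjusted p = 0.0124), a call lost without LP SNL 1 (-0.35, adjusted p = 0.0501) and with only the LP arrays (0.0746). Hsf2 had -0.02 ± 0.11 in HP and -0.04 ± 0.11 in LP. The regulators of HSP70, Hspbp1, an exchange factor, and Hspbap1, a partner of Hspb1 and a dim gene, were not called.

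A contrast that averaged the ligation difference over both lines, chosen after seeing the data, set 6 arrays against 6. It called 6 members higher and 11 lower, 25.4% of 67, where 24.8% of all genes were called (13% higher and 11.8% lower). Beyond the 14 named above, these were Hsp90b1 (0.26 ± 0.09, adjusted p = 0.0490), Dnaja4 (-0.22 ± 0.06, adjusted p = 0.0271) and Dnajc13, an endosomal J-protein (-0.25 ± 0.08, adjusted p = 0.0418). Each of these 3 calls was lost in most cases where an array was left out, 10 for Hsp90b1 (all but HP sham 2 and LP SNL 2), 8 for Dnaja4 (all but HP SNL 1, LP SNL 2, LP SNL 3 and LP sham 3) and 10 for Dnajc13 (all but HP sham 3 and LP sham 1). The adjusted p then lay between 0.0510 and 0.112. Of the 14, Pdia4 lost this call without any one array except HP SNL 2, HP sham 2 and LP sham 3, and Hsf1 without HP SNL 2, HP sham 2 or LP SNL 1 (0.0504 to 0.0558). Pdia4 also lost it with the actin covariate, median centring and the replicate number as a block (0.0807 to 0.321). Hsf1 lost it with the actin covariate as well (0.0656). Calr lost it with the actin covariate and with median centring (0.0558 to 0.117), and Dnajc27 with the actin covariate (0.102). All 6 SNL arrays lay above all 6 sham arrays for Hspb1 and Hspa2, and below them for Dnaja4, Dnajb2, Dnajc6, Dnajc13, Hspa12a and Hspd1, where 7.66% and 7.03% of all genes did so.

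The next question was whether the lines differed. Between LP sham and HP sham no member was called by limma, where 0.00961% of all genes (1 gene) were, and 3 members had an unadjusted p below 0.05. Between LP SNL and HP SNL none was called, where 0.173% of all genes (18) were, and 9 had an unadjusted p below 0.05. The interaction, which tests whether the ligation difference itself differed between the lines, called no member and no gene (0%), with 5 members at an unadjusted p below 0.05. Some genes reach an unadjusted p below 0.05 even where no groups differ, so these unadjusted counts are not read as differences. The calls made in LP alone are thus not shown to differ from HP. Of these, Hsf1 had the smallest interaction p of all members (-0.37 ± 0.13, unadjusted p = 0.0173, adjusted p = 0.988). Calr (0.31 ± 0.13) and Dnajb2 (-0.35 ± 0.15) had unadjusted p of 0.0418 and 0.0441. For Pdia4, Hspd1, Hspe1 and Dnajc27 the interaction was 0.43 ± 0.26, -0.18 ± 0.11, -0.21 ± 0.16 and -0.22 ± 0.20.

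Also among the 5 smallest interaction p-values were Dnajc10 and the dim Dnajc4. Dnajc10, a disulfide reductase of the endoplasmic reticulum, had 1215.4, 1319.2 and 1139.6 in HP sham, against 942.0, 955.0 and 872.4 in HP SNL, without overlap, but 1132.9, 1238.1 and 1277.2 in LP sham and 1206.4, 1543.8 and 1093.3 in LP SNL. Its differences were -0.41 ± 0.13 in HP (adjusted p = 0.0668) and 0.06 ± 0.13 in LP. It was called lower in HP with array weights (0.0443), with trended and robust variance (0.0317), without LP SNL 2 (0.0243) and without the dimmest genes (0.0409). The interaction was 0.47 ± 0.18 (unadjusted p = 0.0278). Its dimmer probe set did not repeat the contrast between the lines, with -0.23 ± 0.12 and -0.27 ± 0.12. In Dnajc4 the interaction was 2.63 ± 1.11 (unadjusted p = 0.0396), over signals of 14.4 to 202.9.

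Dnaja3, a mitochondrial J-protein also called TID1, stood first in both line comparisons. It had 372.0, 394.0 and 387.4 in HP sham, 299.2, 331.5 and 286.8 in HP SNL, 188.3, 251.3 and 258.2 in LP sham and 161.1, 203.4 and 233.2 in LP SNL. All 6 LP arrays were below all 6 HP arrays. The LP to HP difference was -0.74 ± 0.16 after sham (adjusted p = 0.201) and -0.63 ± 0.16 after SNL (adjusted p = 0.198). Averaged over surgery, a contrast chosen after seeing the data, it was -0.68 ± 0.11 (adjusted p = 0.0238), and Dnaja3 was the only member called, where 0.672% of all genes were (0.451% lower). Groups without overlap in that direction were found for 0.701% of all genes. The call was lost without any one of HP SNL 1 and 2, HP sham 1, 2 and 3 and LP SNL 2, with the adjusted p between 0.0549 and 0.0723 and the difference between -0.69 and -0.65.

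**Figure D4:**
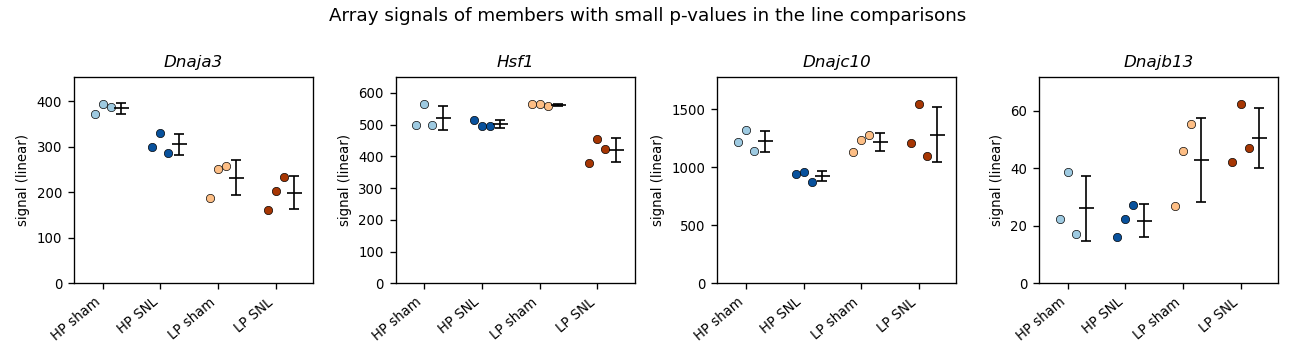
Signal on the deposited linear scale (y axis from 0) of 4 members with small p-values in the line comparisons, by group (x axis), with a dot for each array and a bar at the mean ± SD of 3 arrays. Dnaja3 is lower in every LP array (161.1 to 258.2) than in every HP array (286.8 to 394.0), Hsf1 is low in the LP SNL arrays alone, Dnajc10 is low in the HP SNL arrays, and Dnajb13 is a dim gene with no signal above 62.4.

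The remaining genes with the 5 smallest p-values in a line comparison did not pass. After sham they were Hspa5 (0.24 ± 0.08, adjusted p = 0.419), Dnajc7 (0.28 ± 0.11), Dnajb13 (0.71 ± 0.34) and Calr (-0.19 ± 0.09). After SNL they were Dnajc10 (0.46 ± 0.13, adjusted p = 0.259), Dnajb13 (1.19 ± 0.34), Pdia4 (0.61 ± 0.18) and Dnajb2 (-0.33 ± 0.11).

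Genes that work with chaperones were counted from lists that hold no member. For the counts that follow, 7.02% of all genes were called higher and 6.61% lower in HP, and 7.66% and 6.79% in LP. Of 23 cochaperones of HSP70 and HSP90, 6 fell in HP and 8 in LP and none rose, with medians of -0.05 and -0.16. Stip1 (HOP), the adaptor that joins HSP70 to HSP90, had -0.64 ± 0.08 in HP (adjusted p = 0.000802) and -0.77 ± 0.08 in LP (adjusted p = 0.000201). St13 (HIP), which steadies HSP70 with its client, had -0.55 ± 0.09 and -0.59 ± 0.09. Fkbp4, an immunophilin bound to HSP90, had -0.47 ± 0.09 and -0.69 ± 0.09, and Ahsa1, the activator of the HSP90 ATPase, had -0.48 ± 0.10 and -0.43 ± 0.10. All 8 values passed, and those of Stip1, St13 and Fkbp4 in every alternative. Ahsa1 lost its HP call with the actin covariate (0.0619), and its LP call without LP SNL 3 or LP sham 2 (0.0515 to 0.0550) and with only the LP arrays in the fit (0.0702). Over the alternatives the count of falls ran from 3 to 6 in HP and from 3 to 8 in LP.

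Genes of the unfolded protein response in the endoplasmic reticulum were called higher, 4 of 18 in HP and 3 in LP, and none was called lower (medians 0.09 and 0.20). Xbp1, its transcription factor, had 0.42 ± 0.10 and 0.45 ± 0.10, and Creb3, a membrane-bound transcription factor, had 0.65 ± 0.10 and 0.53 ± 0.10. Nfe2l2 (NRF2) passed in LP (0.50 ± 0.10) and not in HP (0.18 ± 0.10), and the stress gene Nupr1 in HP (0.88 ± 0.21) and not in LP (0.22 ± 0.21). The Xbp1 call in HP was lost without HP SNL 1, HP sham 1 or HP sham 3 (0.0548 to 0.0572), and that of Nupr1 without HP SNL 1 or 2 or HP sham 1 or 2 (0.0566 to 0.0857). With only the arrays of a line in the fit, Xbp1 lost both calls, Nupr1 its HP call (0.0816) and Nfe2l2 its LP call (0.0612). Counts over the alternatives ran from 1 to 5 in HP and 1 to 4 in LP.

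Of 42 other genes of folding and degradation in the endoplasmic reticulum, 6 rose and 2 fell in HP, and 6 rose and 1 fell in LP (medians 0.11 and 0.20). Serpinh1 (HSP47) and Fkbp10, both chaperones of collagen, had 0.54 ± 0.13 and 0.82 ± 0.17 in HP and 0.73 ± 0.13 and 1.04 ± 0.17 in LP. Sdf2l1, of an endoplasmic reticulum chaperone complex, had 0.58 ± 0.10 and 0.37 ± 0.10, and Ero1b, an oxidase that recharges disulfide isomerases, had -1.35 ± 0.26 and -1.24 ± 0.26. Ero1b lost both calls with the mean of its probe sets (-0.44 and -0.37). Serpinh1 lost its HP call without HP SNL 1, HP SNL 3 or HP sham 3 (0.0568 to 0.0799). It also lost that call with the mean of its probe sets and with the actin covariate (0.0591 to 0.325). Sdf2l1 lost its LP call without HP SNL 2, HP sham 1, HP sham 2, LP SNL 2, LP SNL 3, LP sham 2 or LP sham 3 (0.0520 to 0.114). The same call was lost with median centring, the replicate number as a block and only the LP arrays in the fit (0.0583 to 0.118). Over the alternatives the rises ran from 2 to 7 in HP and from 2 to 9 in LP.

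The cytosolic folding partners and the proteasome had few calls. Of 17 prefoldins and chaperonin partners, 1 rose in each line, Pdcl3, a phosducin-like partner of TRiC (1.07 ± 0.11 and 0.78 ± 0.11, in every alternative). The prefoldin subunit Pfdn4 fell in HP (-0.45 ± 0.11), a call lost without any one of HP SNL 1, 2 and 3 and HP sham 2 and 3 (0.0528 to 0.0754), and had -0.31 ± 0.11 in LP. Tbce, a tubulin chaperone, and Trap1, the mitochondrial HSP90, were not called, with -0.33 ± 0.12 and -0.32 ± 0.13 in HP and -0.39 ± 0.12 and -0.27 ± 0.13 in LP. Of 28 proteasome subunits none was called in HP, where 3 had an unadjusted p below 0.05, and Psmd11 was called in LP (0.40 ± 0.11, adjusted p = 0.0407). That call was lost without any one array except HP SNL 2, LP SNL 2 and LP sham 2 (0.0514 to 0.130). Among 16 other stress genes, 3 rose in HP and 4 in LP. The DNA damage and stress genes Gadd45a and Gadd45g rose by 2.04 ± 0.18 and 1.29 ± 0.17 in HP and by 2.34 ± 0.18 and 1.43 ± 0.17 in LP. The cold-inducible Rbm3 rose by 0.68 ± 0.12 and 0.71 ± 0.12, and Serp1, which protects membrane proteins in the endoplasmic reticulum, by 0.79 ± 0.12 in LP (0.36 ± 0.12 in HP, adjusted p = 0.0726).

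**Figure D5:**
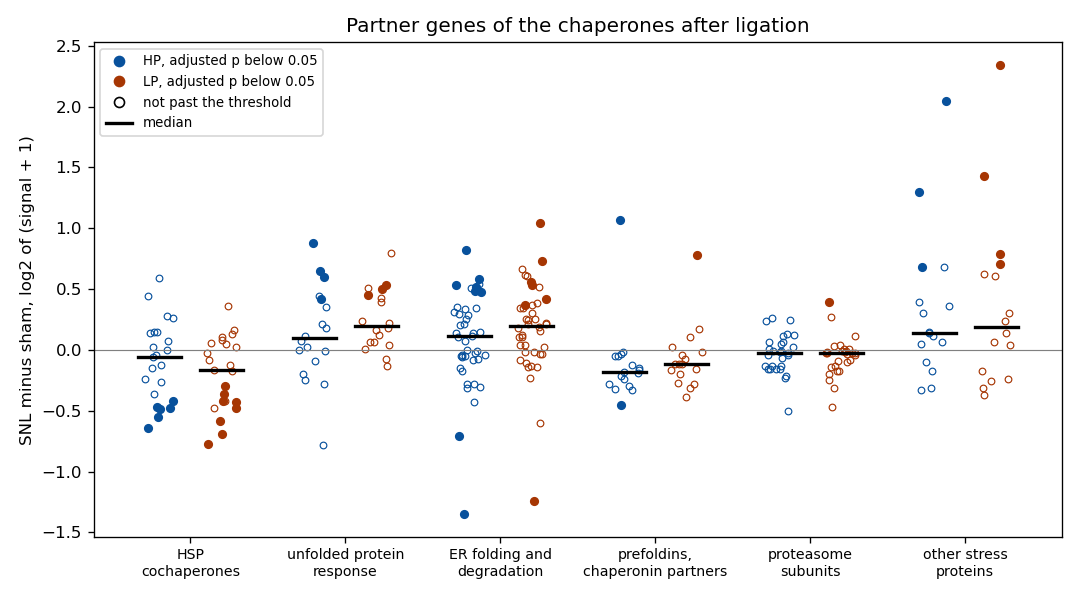
Difference between SNL and sham (y axis, log2 of the signal plus 1) for the measured genes of 6 partner lists (x axis), with a dot for each gene, HP in blue, LP in orange, filled circles at an adjusted p below 0.05 and a black bar at the median. The filled circles of the HSP cochaperones all lie below 0, down to -0.77 for Stip1, and the 2 highest points are Gadd45a at 2.04 and 2.34.

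Some cell type markers were also called after ligation, and in bulk RNA fewer cells of a type and less RNA per cell cannot be told apart. Of 10 neuron markers 6 were called lower in each line, and their summed signal went from between 45568.0 and 48492.0 in HP sham to between 38636.7 and 41182.4 in HP SNL, and from between 43504.6 and 49136.2 in LP sham to between 33561.1 and 38018.3 in LP SNL. The 4 not called were Uchl1, Prph, Nefh and Nefl. Of 9 macrophage markers 7 were called higher in each line, with sums of 3490.2 to 4106.8 in the sham arrays and 7649.0 to 9326.7 in the SNL arrays. Satellite glia had 3 of 6 markers higher in each line (sums of 4892.6 to 5655.2 after sham and 7592.6 to 8042.4 after SNL) and fibroblasts 4 of 6 (19146.6 to 22027.0 and 24858.9 to 32694.7). Schwann cells had 1 of 6 markers higher in each line, endothelium 2 of 5 in HP and 1 in LP, red blood cells 1 of 2 in HP, cell cycle genes 3 of 6 in HP and 5 in LP, and none was called among 6 T cell and 2 neutrophil markers. Of 14 skeletal muscle markers 5 were called lower in HP and none in LP, with sums of 4784.0 to 6026.5 in HP sham, 3687.6 to 3975.5 in HP SNL, 4100.4 to 4754.0 in LP sham and 4205.1 to 4371.7 in LP SNL. No marker had a group mean of 0. The ratio of the 3' to the 5' beta-actin probe set, a sign of RNA integrity, was 1.48 to 1.85 in HP sham and 1.12 to 1.34 in HP SNL, without overlap, and 0.993 to 1.88 in LP sham and 1.11 to 1.13 in LP SNL. With its log2 as a covariate Hspb1 (0.97, adjusted p = 0.0150), Dnajb4 (-0.60, 0.0377) and Dnajc6 (-0.44, 0.0382) kept their HP calls. The part of these shifts in the chaperone differences was otherwise not tested.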

How the data were processed

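Each array gave 1 intensity per probe set in the authors' deposited table, and RMA is the only program named per the submitters' processing notes. For its steps and the annotation build, the sources used here give nothing. As deposited, the intensities are linear (0.0 to 13930.7, with 109 of 191076 values below 1) and every array has a trimmed mean of 499.9 to 500.1 (2% trimmed at each end) and a median of 278.4 to 313.2, so they look scaled to a common level. The plan was to use log2 values as they were, or log2 of the signal plus 1 if the values were linear. Log2 of the deposited intensity plus a pseudocount of 1 was therefore taken. Of 15923 probe sets, 57 controls, 312 with several symbols and 2771 without a symbol were left out. The other 12783 were named by gene identifier (12748), accession (2) or the platform's symbol (33), and the brightest probe set stood for each of 10411 genes.

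Group means of all 12 arrays were fitted with limma 3.58.1 (R 4.3.3), with 8 residual degrees of freedom. Benjamini-Hochberg adjustment ran over all genes, with a threshold of 0.05 and two-sided tests. An error after ± is the fit's SE, and a fold is 2 to the power of a log2 difference. Groups and replicate numbers came from sample titles. The precision is limited by 3 arrays per group. The fit was tested on simulated data. The members and gene lists were chosen with earlier results of these data known. Named were the members past the threshold in any of the 5 contrasts, the canonical heat shock genes, the 5 members with the smallest p in each line contrast and the interaction, and up to 4 genes of each partner list with the smallest p in a ligation contrast. The 2 averaged contrasts were chosen after seeing the data. Alternatives were pseudocounts of 16 and 32, median centring, quantile normalization, array weights, trended and robust variance, all probe sets of a gene averaged, no genes from the dimmest 25%, the actin ratio as a covariate, the replicate number as a block, only the arrays compared, and each array left out. Motifs were searched in RefSeq promoter windows on both strands.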

Additional observations from a re-analysis of the deposited data

How the results depend on the processing

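No value of a member or list called in the main comparisons changed direction. With median centring 1 member was called higher in HP and 3 in the averaged ligation contrast. With only the arrays compared in the fit, 2 members were called lower in HP, 2 higher in LP and 2 lower in LP, and over all genes 814 were called in LP in place of 1504. With the actin covariate 816 genes were called in HP in place of 1419. Leaving out 1 array at a time gave 1 to 3 members higher and 2 to 5 lower in HP, 3 to 5 higher and 5 to 9 lower in LP, 4 to 6 higher and 8 to 12 lower in the averaged ligation contrast, and 0 to 1 lower in the averaged line contrast. The cause of these shifts was not tested.

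Same-numbered arrays of different groups had correlations of -0.158 to 0.098 in their deviations from the group means, so the numbers were not taken to pair the samples. With the replicate number as a block, limma called 2 members higher and 4 lower in HP, 4 higher and 8 lower in LP, and 4 higher and 9 lower in the averaged ligation contrast. Signals near the background limit what the 15 dim members can show.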
